A study of Mus musculus with 10 samples.

Results

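The comparison described here is that of Pml knockout with Pml wild type liver after a fast, 3 arrays against 3 of the 10 arrays in the series. The 6 were chosen by their sample titles, which give the genotype and 6 h without food. All 10 arrays are labelled as from female mice of the BALB/cByJ strain, 3 months old. The mice were kept specific pathogen free with a regular light and dark cycle and free access to water. The fasted groups differ in the Pml gene, intact in wild type and knocked out in the other, and the labels name no Cre driver or tissue for the knockout. The remaining 4 arrays, 2 of wild type and 2 of knockout mice fed ad libitum, served to ask whether a difference also existed without the fast. Whole liver RNA was hybridised to Mouse Gene 2.1 ST arrays of Affymetrix, which read each transcript with probes spread over its exons. The labels name neither the Pml allele nor the hour of collection. They also do not say that each array stands for a separate animal, so the p values below may in part reflect technical spread only.

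PML is the protein that builds PML nuclear bodies, small spheres at which many proteins gather and are modified with SUMO, and its gene is itself induced by interferon. During a fast the liver turns from storing glucose and making fat to burning fatty acids, making ketone bodies and releasing glucose. The nuclear receptor PPAR alpha and the FoxO factors, held back by insulin after a meal, switch on much of that program. Liver genes also follow the circadian clock, in which ARNTL (BMAL1) with CLOCK or NPAS2 drives the repressors of the PER, CRY and REV-ERB families.

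Levels are log2 intensities, and differences are knockout minus wild type on the log2 scale with the standard error (SE) of the limma fit, so that a difference of 1 is a doubling. Of the genes with 1 symbol, 13942 passed the filter on low values and were tested. A gene was called where its limma p, adjusted by Benjamini-Hochberg over all of these genes, was under 0.05. Array medians lay between 43.5 and 47.5 intensity units. For a group with no array above its median the level is only a bound, and the fold is written as "at least", computed from the other group against that median. The number of arrays limits the precision.

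Pml was lower on each knockout array. Its probe set read 7.72, 7.50 and 8.13 on the fasted wild type arrays and 6.05, 6.35 and 6.14 on the fasted knockout arrays. The groups did not overlap, and the fed knockout arrays (6.91 and 6.41) also lay below the fed wild type arrays (8.37 and 8.22). The fasted difference was -1.60 (SE 0.18, adjusted p = 0.00433 by limma), which leaves 32.9% of the wild type signal. A two-sided exact permutation test over the 20 divisions of 6 arrays gave p = 0.1, the smallest it can give. Whether the probe set lies within the deleted sequence is not known, so the remaining signal says nothing of a remaining protein.

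The fasted knockout arrays were not alike. Between whole arrays, replicate 1 correlated at 0.9638 to 0.9736 with the fed arrays and at 0.947 to 0.9509 with fasted wild type. Replicate 3 was nearer to fasted wild type (0.971 to 0.9728) than to the fed arrays (0.9601 to 0.9665). For replicate 2 the ranges overlapped (0.9633 to 0.9772 fed, 0.9677 to 0.9689 fasted wild type). The reason for this was not tested. Replicates 1 and 2 differed from replicate 3 in genes of the circadian clock, in a pattern already known from these files when the genes were chosen. Npas2, a partner of ARNTL, read 10.05, 8.78 and 9.61 in wild type against 3.88, 4.88 and 8.93 in knockout. Arntl read 9.29, 9.04 and 9.16 on the wild type arrays against 4.60, 4.53 and 8.87 on the knockout arrays. In both genes replicate 3 lay near the wild type arrays and the other knockout arrays far below them. Neither difference passed the test (Npas2 -3.58, SE 1.03, adjusted p = 0.0534; Arntl -3.16, SE 0.93, adjusted p = 0.0579, both by limma). Per3, a repressor, showed the reverse, at 6.16, 6.33 and 6.29 in wild type and 8.82, 8.87 and 5.88 in knockout (difference 1.60, SE 0.65, adjusted p = 0.141). Cdkn1a, the cell cycle inhibitor p21, read between 11.29 and 11.39 in wild type and 5.26, 6.27 and 10.84 in knockout (-3.87, SE 1.18, adjusted p = 0.0638). Replicate 3 departed from wild type too. Of 12 tested clock repressors and output genes 9 lay below all 3 wild type arrays on it. Among all 13942 genes tested 4433 did so. The median of the repressor and output list against the fasted wild type mean was -0.42 on replicate 3, and 1.02 and 1.18 on replicates 1 and 2. On the fed arrays of both genotypes it lay between 0.63 and 0.96. The median of the clock activators was -1.81, -1.31 and -0.35 on knockout replicates 1, 2 and 3. It lay between -1.33 and -0.91 on the fed arrays. In both lists replicates 1 and 2 were thus nearer to the fed arrays than replicate 3 was. Since the hour of collection is not given, clock state and genotype cannot be told apart on any fasted knockout array. Replicate 3 alone against the wild type arrays is given beside the main results and is not free of this limit.

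**Figure D1:**
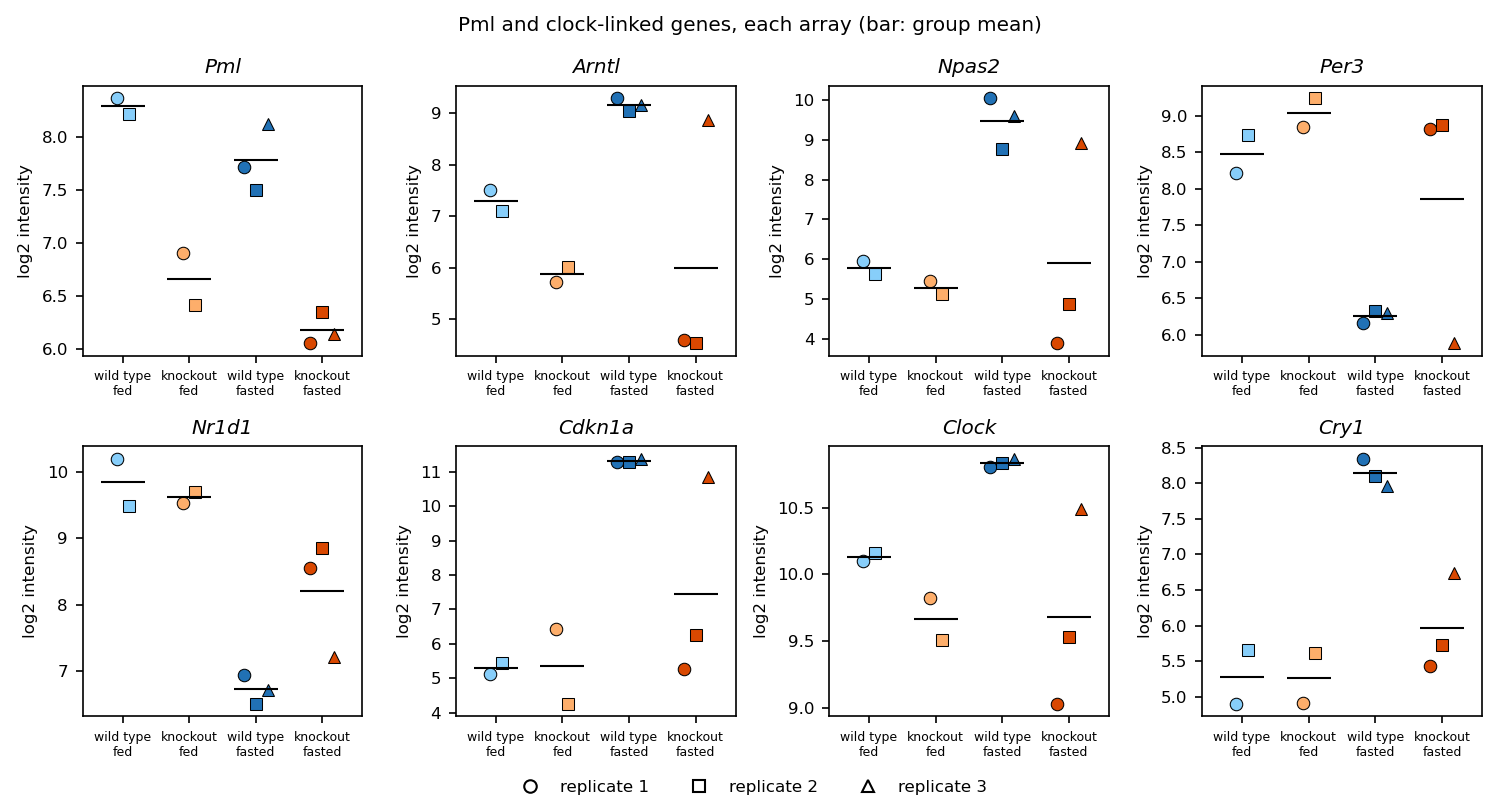
Log2 intensity of Pml, the clock genes Arntl, Npas2, Per3, Nr1d1, Clock and Cry1, and Cdkn1a, which is on no clock list. Each of the 10 arrays is shown by group, and each y axis has its own range that does not start at 0. Circles, squares and triangles are replicates 1, 2 and 3 and bars are group means. Pml is low on all 5 knockout arrays, while in Arntl, Npas2, Per3 and Cdkn1a fasted knockout replicate 3 lies with or near fasted wild type and replicates 1 and 2 lie apart.

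Some clock genes differed on all knockout arrays. Cry1, a core repressor, read 8.35, 8.11 and 7.97 in fasted wild type against 5.43, 5.73 and 6.74 in knockout. Knockout replicates 1 and 2 lay close to the fed arrays, which read between 4.90 and 5.65. Knockout replicate 3 lay between the fed and the fasted wild type arrays. The fasted difference was -2.17 (SE 0.33, adjusted p = 0.00817), and -1.40 with replicate 3 alone (adjusted p = 0.114, limma). Rora, a nuclear receptor that activates Arntl, was also lower (-0.78, SE 0.13, adjusted p = 0.00978; replicate 3 alone -0.69). Clock (-1.16, SE 0.29, adjusted p = 0.0349) and the REV-ERB alpha gene Nr1d1 (1.48, SE 0.37, adjusted p = 0.0341) were called too. Their calls were lost in 5 of the 6 fits that leave out 1 fasted array, and replicate 3 alone gave -0.35 for Clock and 0.49 for Nr1d1. Of 5 tested clock activators 2 fell, 1 in each fit without another fasted array and 5 without knockout replicate 3. Of 12 repressors and output genes 1 rose and 1 fell, and without knockout replicate 3 the number that rose was 6. Over all 13942 genes tested 6.68% rose and 4.43% fell. In the fit without knockout replicate 3, 826 of all genes rose and 675 fell.

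Over all genes the fasted groups differed in 1549, or 11.1% of those tested, 931 higher and 618 lower in knockout (6.68% and 4.43%). The list counts below are to be set beside these shares. The 3 knockout arrays lay wholly on one side of the 3 wild type arrays in 33% of all genes (17.9% above and 15.1% below), and in 1548 of the called genes. The median difference over all genes was 0.01. The count rested on single arrays. It was 435 without knockout replicate 1, 724, 743 and 536 without wild type replicates 1, 2 and 3, and 1335 and 1501 without knockout replicates 2 and 3. In the main fit and all 6 of these fits 370 genes were called, 252 higher and 118 lower. With knockout replicate 3 alone, assumed to vary like the other groups, limma called 6 genes, and 2556 had an unadjusted p under 0.05. Of the 1549 called genes, 1549 had replicate 3 outside the wild type range on the same side, which the use of that array in the call favours. Pdk4 and the interferon-stimulated Ifit1 were among the 6.

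**Figure D2:**
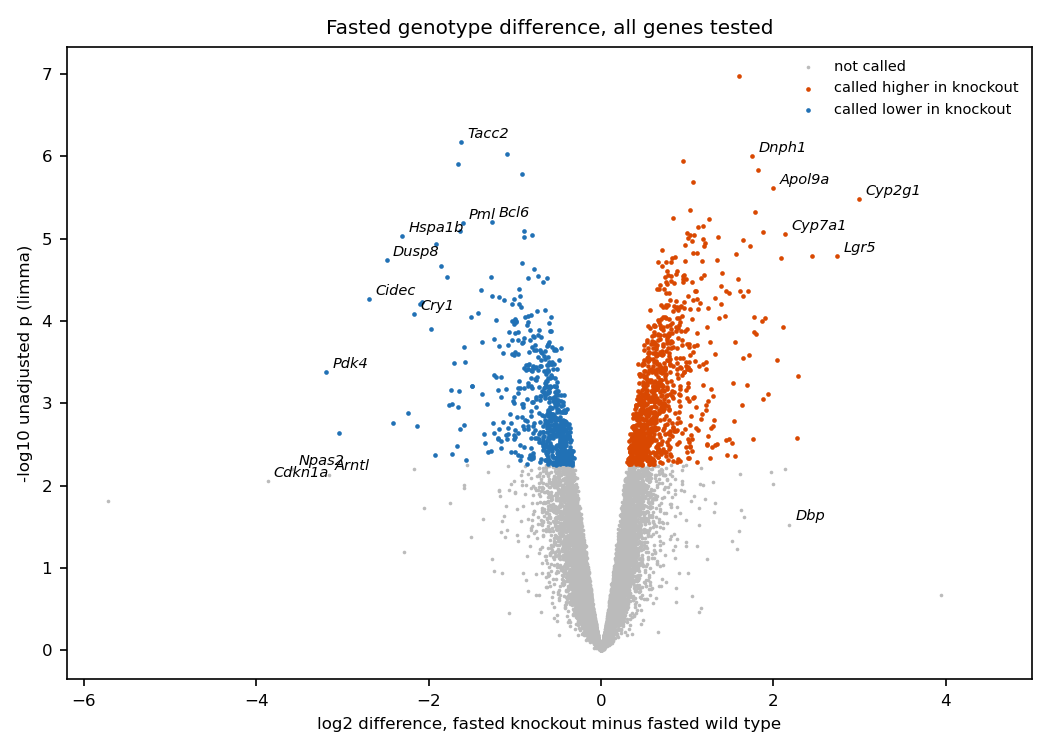
Each point is 1 of 13942 genes, with the log2 difference of fasted knockout minus fasted wild type on the x axis and -log10 of the unadjusted limma p on the y axis; orange and blue mark genes called higher and lower. Cyp2g1 (3.00) and Lgr5 (2.74) lie far to the right among the called genes. The clock genes Arntl and Npas2 and the cell cycle inhibitor gene Cdkn1a have large differences without a call.

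Interferon-stimulated genes were higher in fasted knockout liver. Of 39 on the list 32 were tested, 15 rose, and only Pml itself fell. The median difference was 0.82, against 0.01 over all genes. On knockout arrays 1, 2 and 3 the list's median lay 0.62, 0.76 and 1.01 above the fasted wild type mean, while the wild type arrays lay between -0.15 and 0.29. The arrays that stood apart in clock genes were thus the lower ones here, and replicate 3 the highest. The count of higher members was between 10 and 16 over the fits without 1 fasted array, and 10 rose in all 6: Isg15, Igtp, Ifit1, Gbp3, Gbp7, Zbp1, Rtp4, Ddx58, Xaf1 and Ifih1.

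Some of these genes carry the classical response element within the 250 bases before their start. The sequences are shown because the members that rose share it more often than other genes do. The motif searched was GAAANNGAAA on either strand, a pair of GAAA sites at the spacing of the interferon-stimulated response element (ISRE), in RefSeq promoter windows of 300 bases (250 before and 50 after each start, assembly GRCm38.p6). It was found in 3.99% of all promoters in the table, 3.74% of tested genes with a promoter, 6.38% of genes called higher and 4.03% of genes called lower. Of the 15 list members that rose 12 had a promoter in the table, and 9 of these 12 (75.0%) held it. Of the 24 tested list members with a promoter, called or not, 14 (58.3%) held it. In 7 of the 9 all matches lay upstream of the start, and these are shown 5′ to 3′ on the strand of the gene, with matches in capitals; runs of TTTC are the motif read from the opposite strand. A match is a description of the letters and not a measured site.
Isg15, chr4:156200863-156200908, minus strand: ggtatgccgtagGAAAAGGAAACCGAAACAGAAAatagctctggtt
Ifit1, chr19:34640773-34640825, plus strand: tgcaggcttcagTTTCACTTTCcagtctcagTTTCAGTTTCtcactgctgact
Igtp, chr11:58199510-58199543, plus strand: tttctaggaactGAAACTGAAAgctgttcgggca
Irgm2, chr11:58214901-58214934, plus strand: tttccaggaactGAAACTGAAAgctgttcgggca
Irgm1, chr11:48871423-48871462, minus strand: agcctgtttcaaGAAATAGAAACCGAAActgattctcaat
Gbp3, chr3:142559987-142560026, plus strand: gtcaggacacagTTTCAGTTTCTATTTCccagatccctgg
Gbp7, chr3:142530271-142530304, plus strand: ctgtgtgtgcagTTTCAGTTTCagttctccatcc
Isg15 held 3 overlapping matches, Ifit1, Irgm1 and Gbp3 held 2 each, and Igtp, Irgm2 and Gbp7 held 1. The windows of Igtp and Irgm2, neighbouring members of one GTPase family, were identical at 33 of 34 bases, so these are not independent examples. The matches of Ddx58 and Ifih1 reach past the start and are not shown.

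Isg15, a ubiquitin-like protein conjugated to others after interferon, read 4.72, 4.31 and 5.18 in fasted wild type against 6.30, 6.43 and 7.18 in knockout. The knockout arrays lay clearly above, by at least 2.15-fold (1.90, SE 0.30, adjusted p = 0.00822). Ifit1, which binds foreign RNA, read 7.26, 7.02 and 7.57 against 8.25, 9.08 and 9.67 (1.72, SE 0.31, adjusted p = 0.0114). Here replicate 3 stood highest, and alone it gave 2.39 (adjusted p = 0.0454, limma). The immunity-related GTPase Igtp read 7.53, 7.14 and 8.02 against 9.02, 9.35 and 9.52 (1.73, SE 0.21, adjusted p = 0.00443). Its relatives Irgm2 (1.27, adjusted p = 0.0176) and Irgm1 (0.91, adjusted p = 0.0279) rose less and lost their calls in at least 1 fit without a fasted array.

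The guanylate-binding proteins are GTPases that attack intracellular microbes. Gbp10 read 6.45, 6.26 and 7.04 in fasted wild type against 9.06, 9.03 and 9.0 in knockout, the widest gap between nearest arrays of any named gene that rose (2.45, SE 0.31, adjusted p = 0.00489). Gbp3 read 6.60, 6.59 and 6.84 against 8.28, 8.21 and 8.49 (1.65, SE 0.20, adjusted p = 0.00433), and Gbp7 rose by 1.57 (SE 0.20, adjusted p = 0.00489). Gbp6 on the same list differed by 0.13 and was not called. The apolipoprotein L genes Apol9a (2.00, SE 0.20, adjusted p = 0.00338) and Apol9b (1.82, SE 0.17, adjusted p = 0.00285) were also higher. Gbp and Apol9 genes are close copies that may share probes, so each value can hold signal of a relative.

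Sensors and regulators of the pathway were among the higher genes. The RNA sensors Ddx58 (RIG-I; 0.97, SE 0.16, adjusted p = 0.0092) and Ifih1 (MDA5; 0.95, SE 0.13, adjusted p = 0.00552) and the nucleic acid sensor Zbp1 (1.44, SE 0.22, adjusted p = 0.00822) rose. So did the transcription factor Irf7 (0.99, SE 0.20, adjusted p = 0.0179). Stat2, a subunit of the factor that binds the ISRE, differed by -0.06, Ifit3 by 0.12 and Sp100, a companion of PML in nuclear bodies, by 0.12, none of them called. Usp18, which removes ISG15, read 9.54, 8.58 and 8.88 against 9.41, 9.85 and 10.85 and overlapped between groups (1.04, adjusted p = 0.0864).

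Antigen presentation moved in part. Of 13 tested genes of MHC class I and the immunoproteasome 3 rose and 0 fell, with a median of 0.20, and without knockout replicate 3 the count was 5. The immunoproteasome subunit Psmb9 read 5.47, 5.04 and 5.56 against 7.76, 6.76 and 6.89 and was at least 3.04-fold higher (1.78, SE 0.29, adjusted p = 0.00922). Psmb10 (1.02, adjusted p = 0.0353) and the peptide transporter Tap1 (0.71, adjusted p = 0.0176) also rose, while Psmb8 (0.48, adjusted p = 0.0788) was not called.

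In fed liver no member of the list but Pml was called. The median fed difference was 0.02, with Isg15 at 0.17, Ifit1 at 0.18, Igtp at -0.08 and Gbp3 at -0.01. The list's median on the fed arrays lay 0.48 to 0.82 above the fasted wild type mean in wild type and at 0.60 and 0.69 in knockout. The fasted knockout arrays were thus near the fed arrays of both genotypes, and the fasted wild type arrays were the low ones. The difference between the fasted and the fed genotype difference, tested as an interaction in limma, was called for 4 list members, Igtp, Gbp3, Gbp7 and Ifih1.

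Macrophages respond strongly to interferon, and their markers moved beside this list. Of 14 tested macrophage and Kupffer cell markers 4 rose (all genes: 6.68%) and 0 fell, with a median of 0.37. The 4 were Cd5l, Adgre1, Csf1r and Cd68. The summed intensity of the marker list was between 5267 and 5658 on fasted wild type arrays and between 6365 and 7467 on fasted knockout arrays. The fed arrays lay between 5475 and 6956. The Kupffer markers Clec4f (-0.02) and Marco (-0.03) did not follow, and Ccr2, a monocyte marker, lay below the median on all fasted arrays. In whole liver, more cells of a type and more RNA per cell cannot be told apart. The count was 3 without knockout replicate 2 and 1 in each of the other 5 fits without a fasted array, the 1 that held being Adgre1 (0.54, SE 0.10, adjusted p = 0.0118). The part of these cells in the interferon result was not tested.

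**Figure D3:**
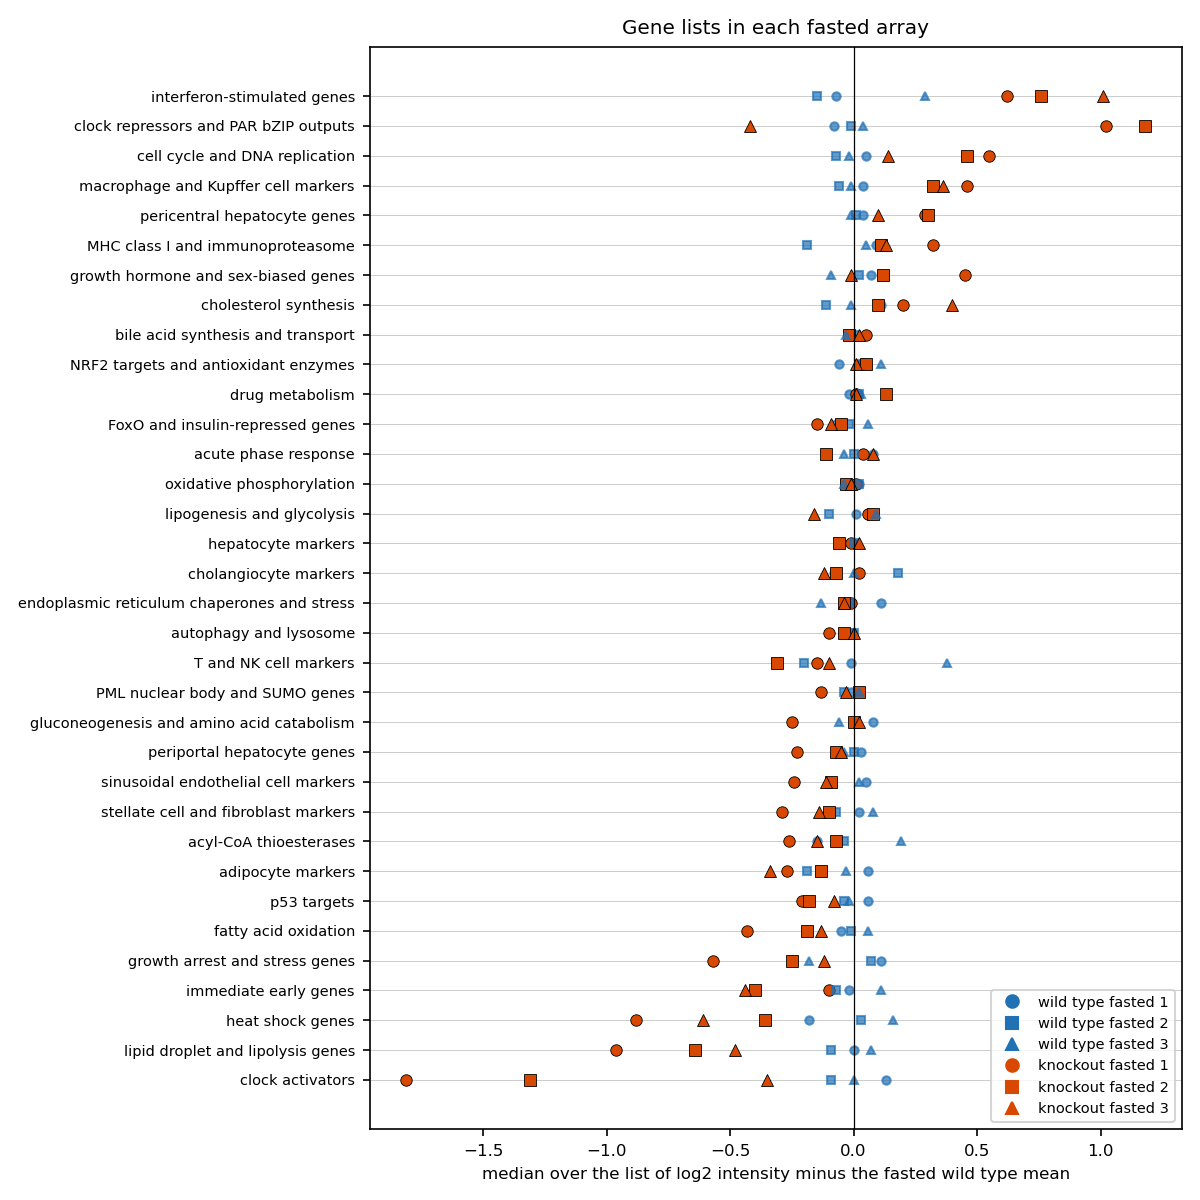
For each gene list with at least 5 tested members (y axis, ordered by its median difference), the median over members of log2 intensity minus the fasted wild type mean (x axis), on each of 6 fasted arrays; blue is wild type, orange knockout, and the shapes are replicates. Interferon-stimulated genes lie right of all wild type arrays on each knockout array and lipid droplet and heat shock genes lie left, while in both clock lists replicate 3 lies far from replicates 1 and 2.

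Lipid droplet and lipolysis genes were lower. Of 14 tested 7 fell and 0 rose, with a median of -0.65. The list's median was -0.96, -0.64 and -0.48 on the 3 knockout arrays. Between 3 and 6 members fell over the fits without 1 fasted array, with 3 without knockout replicate 1, 3 without wild type replicate 1 or 3 and 4 without wild type replicate 2. The 3 that fell in all 6 were Cidec, Hilpda and Pnpla2.

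Cidec, which fuses small lipid droplets into larger ones, read 11.57, 11.28 and 11.71 in fasted wild type against 7.71, 9.27 and 9.50 in knockout. The knockout arrays lay far below, yet above the fed arrays, which read between 5.47 and 5.93. The difference was -2.69 (SE 0.39, adjusted p = 0.00685), and -2.02 with replicate 3 alone (adjusted p = 0.062, limma). Hilpda, an inhibitor of triglyceride breakdown, read 8.25, 8.89 and 8.97 against 6.37, 6.84 and 7.16 (-1.91, SE 0.23, adjusted p = 0.00443). Pnpla2, the lipase ATGL that opens triglyceride breakdown, fell by 0.83 (SE 0.14, adjusted p = 0.00907). Both an inhibitor and the lipase it inhibits were therefore among the lower genes.

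The perilipins coat lipid droplets. Plin4 read 10.34, 9.47 and 9.51 in fasted wild type against 6.82, 7.62 and 8.18 in knockout (-2.24, SE 0.50, adjusted p = 0.0242). Plin5 (-1.67, adjusted p = 0.0377), Plin2 (-0.70, adjusted p = 0.0192) and Plin3 (-0.52, adjusted p = 0.0331) fell as well. Each of these 4 lost its call in at least 1 fit without a fasted array. Lipe (-0.25), Mgll (-0.44), Abhd5 (-0.20) and the ATGL inhibitor G0s2 (-0.60) were not called.

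Cidec and the perilipins are also adipocyte genes. The summed intensity of 7 adipocyte markers was between 3070 and 3999 in fasted wild type, between 792 and 1419 in fasted knockout and between 541 and 668 on the fed arrays. Of 5 tested only Cidec fell. Without Cidec the sum of the other markers was between 576 and 841 in fasted wild type and between 552 and 693 in fasted knockout, and these ranges overlapped. Adipoq, the fat cell hormone adiponectin, read between 5.31 and 5.87 on the fasted arrays (0.25, adjusted p = 0.167), and Lep, Plin1 and Retn lay below the median on all fasted arrays.

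Pdk4, the kinase that keeps pyruvate out of the mitochondrial furnace during a fast, read 12.30, 12.67 and 12.67 in fasted wild type against 7.57, 9.87 and 10.63 in knockout. Knockout replicate 1 lay at the fed level, which was between 7.58 and 7.94, and the other 2 lay between. The difference of -3.19 (SE 0.61, adjusted p = 0.0137) was the largest in size among all called genes. It was called in 5 of the 6 fits without a fasted array and missed the threshold without wild type replicate 3 (adjusted p = 0.0512), and with replicate 3 alone it was -1.92 (adjusted p = 0.0454).

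Of 26 tested fatty acid oxidation genes 4 fell (all genes: 4.43%) and 0 rose, with a median of -0.27. Fgf21, the fasting hormone of the liver, read 8.37, 8.93 and 9.30 against 6.31, 7.03 and 7.98 (-1.76, SE 0.38, adjusted p = 0.0216). The peroxisomal enzyme Ehhadh (-1.08, SE 0.26, adjusted p = 0.0325), the carnitine transporter Slc22a5 (-0.97, SE 0.22, adjusted p = 0.0257) and the peroxisome factor Pex11a (-0.78, SE 0.15, adjusted p = 0.0132) were the others. The count was 2 without wild type replicate 1 and 1 without wild type replicate 2 or 3 or knockout replicate 1, and none of the 4 was called in all 6 fits without a fasted array. Core mitochondrial enzymes were not called: Cpt1a differed by 0.20, Acads by 0.11, Hadh by 0.06, Acadm by -0.18, Hadha by -0.21 and Acadvl by -0.13. Cpt2 (-0.32), Hadhb (-0.39) and Crat (-0.79) were lower by more, also without a call. The knockout arrays lay wholly below wild type in 15 of the 26 genes and wholly above in 1. Over all genes these shares were 15.1% and 17.9%. Ppara itself differed by -0.26 (adjusted p = 0.271).

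Of 9 tested acyl-CoA thioesterases, which release fatty acids from coenzyme A, 1 fell and 0 rose, with a median of -0.19. The 1 that fell was Acot2, which read 13.10, 13.18 and 13.73 in fasted wild type against 10.43, 11.76 and 11.54 in knockout (-2.10, SE 0.31, adjusted p = 0.00723). The fed arrays lay between 9.10 and 9.73, and the interaction with fasting was -2.52 (SE 0.49, adjusted p = 0.0426). Acot1 (-1.59, adjusted p = 0.0706) and Acot3 (-0.70, adjusted p = 0.0872) were not called, and since the Acot genes lie as close copies their probes may be shared. Of the 4 tested ketone body genes the monocarboxylate transporters Slc16a1 (-1.01, adjusted p = 0.0341) and Slc16a6 (-0.86, adjusted p = 0.0494) fell. Bdh1, which makes hydroxybutyrate, rose (0.46, adjusted p = 0.0341). Both transporters kept their calls without knockout replicate 3 and lost them in each of the other 5 fits without a fasted array.

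Insulin-repressed genes did not move as a block. Of 16 tested FoxO and insulin-repressed genes 3 fell (all genes: 4.43%) and 1 rose (all genes: 6.68%), with a median of 0.02. Igfbp1, a secreted binder of insulin-like growth factors, read 10.72, 11.36 and 10.49 against 9.43, 8.84 and 10.23 (-1.36, SE 0.33, adjusted p = 0.0324), and the insulin receptor substrate Irs2 fell by 1.10 (SE 0.27, adjusted p = 0.0326). Each of these was called in 1 of the 6 fits without a fasted array. The number that fell was 4 without knockout replicate 3, 0 without wild type replicate 3 and 1 without any other fasted array. The gluconeogenic genes G6pc (0.03) and Pck1 (0.12) and the coactivator Ppargc1a (0.06) were not called. Ppp1r3g, which steers glycogen synthesis and was higher in fed knockout (5.88), differed by 0.07 in fasted liver. Of 20 genes of gluconeogenesis and amino acid catabolism 3 fell, among them pyruvate carboxylase Pcx (-0.37, adjusted p = 0.0337), and Prodh rose (0.44, adjusted p = 0.0261). The number that fell was 0 without any 1 of the wild type arrays or knockout replicate 1, and 1 without knockout replicate 2. Of 19 lipogenic and glycolytic genes 1 rose (Pgd) and 1 fell (Acacb), with 0 in both directions without knockout replicate 1 or any 1 wild type array. Of 27 oxidative phosphorylation genes 0 were called by limma in either direction.

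Heat shock genes were lower. Of 12 tested 4 fell (all genes: 4.43%) and 0 rose, with a median of -0.63 and array medians of -0.88, -0.36 and -0.61. Hspa1b, the inducible HSP70 chaperone, read 7.52, 7.87 and 8.05 in fasted wild type against 5.39, 5.79 and 5.32 in knockout. The arrays of each group lay close together and more than 1 unit apart from the other group (-2.31, SE 0.27, adjusted p = 0.00433; replicate 3 alone -2.49, adjusted p = 0.0708). The fed arrays, between 6.42 and 7.73, lay above all 3 fasted knockout arrays. The small heat shock protein Hspb1 (-1.39, SE 0.20, adjusted p = 0.0063) and the HSP70 cochaperone Bag3 (-1.06, SE 0.17, adjusted p = 0.00927) fell in all 6 fits without a fasted array, and Dnajb1 (-0.67, adjusted p = 0.0343) did not hold in all. Hspa1a, a near copy of Hspa1b that may share its probes, differed by -0.26 (adjusted p = 0.444), and the constitutive Hspa8 by -0.16.

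Immediate early genes, transcription factors switched on within minutes of a stimulus, were lower in part. Of 15 tested 5 fell and 0 rose, with a median of -0.42; the count was 3 without wild type replicate 3 or knockout replicate 1. Jun read 9.44, 9.31 and 9.62 in fasted wild type against 8.51, 7.85 and 7.71 in knockout, and between 5.91 and 6.62 on the fed arrays (-1.43, SE 0.22, adjusted p = 0.00781). Atf3 (-1.65, SE 0.34, adjusted p = 0.018), Klf6 (-1.08, SE 0.19, adjusted p = 0.0105), Fosl2 (-1.03, SE 0.18, adjusted p = 0.0114) and Jund (-0.63, adjusted p = 0.0466) were the others. Egr1 (-0.75), Junb (0.47) and Myc (0.15) were not called. The phosphatase Dusp8, which shuts off stress kinases and is on no list, read 7.48, 7.81 and 7.81 against 4.51, 5.75 and 5.39 (-2.48, SE 0.32, adjusted p = 0.00489). Of 12 growth arrest and stress genes Gadd45b (-1.73, SE 0.37, adjusted p = 0.0214) and Atf3 fell, and the count was 5 without knockout replicate 3, 0 without wild type replicate 3 and 1 without wild type replicate 1 or 2 or knockout replicate 1.

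**Figure D4:**
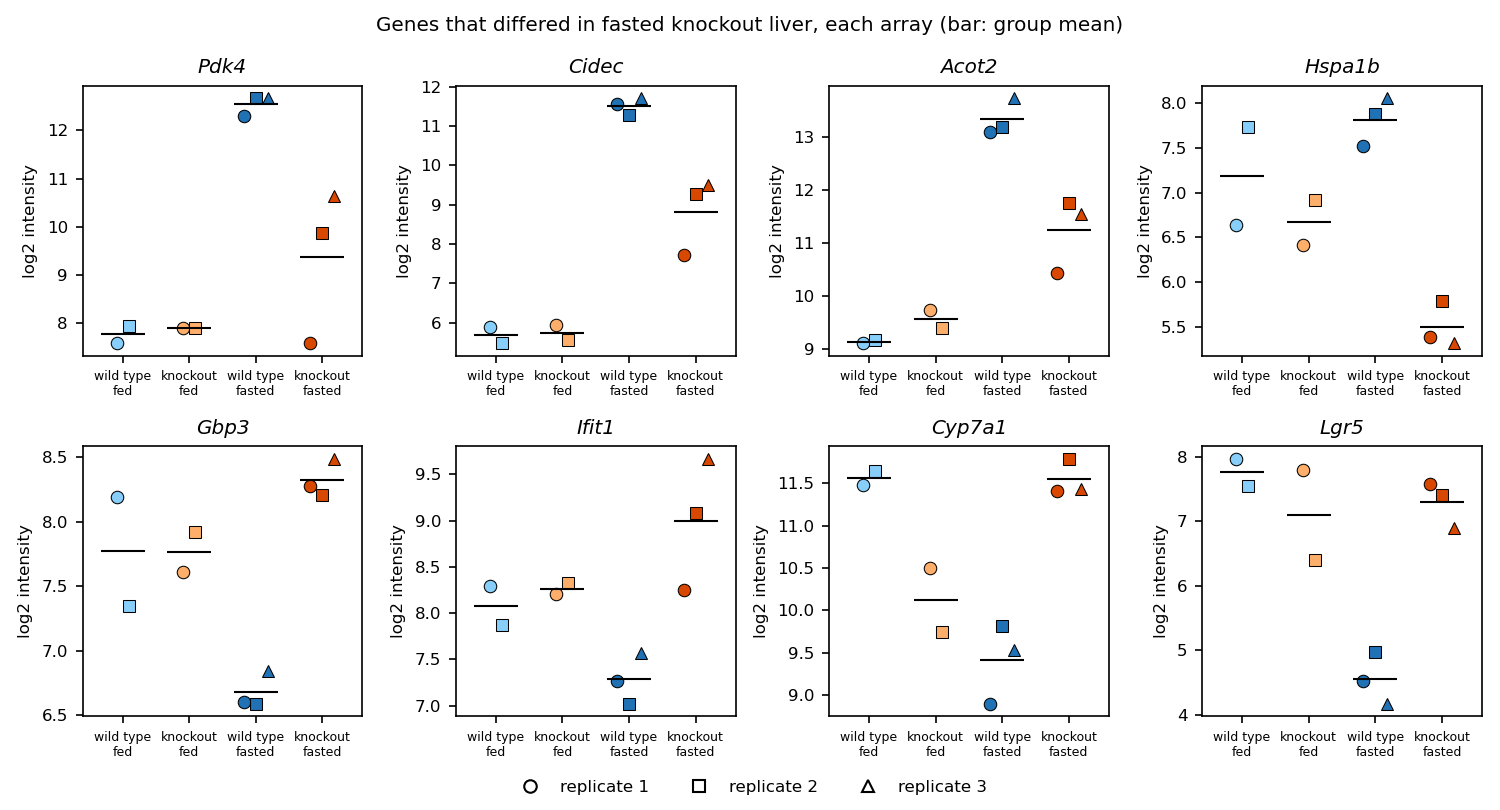
Log2 intensity of 8 genes that differed between fasted genotypes (y axes, each with its own range that does not start at 0) on each of the 10 arrays, with bars at group means and shapes for replicates. In Pdk4, Cidec and Acot2 the fasted knockout arrays lie between fed and fasted wild type or at the fed level, whereas in Gbp3 and Lgr5 only the fasted wild type arrays are low.

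The largest rise among called genes was that of Cyp2g1, a cytochrome P450. It read 5.42, 5.36 and 5.86 in fasted wild type against 8.91, 8.99 and 7.73 in knockout, where the fed arrays lay between 7.99 and 8.75 (3.00, SE 0.32, adjusted p = 0.00422; replicate 3 alone 2.18, adjusted p = 0.062). Lgr5, the R-spondin receptor that marks hepatocytes around the central vein, read 4.52, 4.97 and 4.17 against 7.57, 7.41 and 6.90. It was at least 3.4-fold higher (2.74, SE 0.35, adjusted p = 0.00489). Cyp7a1, the rate-limiting enzyme of bile acid synthesis, read 8.90, 9.81 and 9.53 against 11.41, 11.79 and 11.43 (2.13, SE 0.25, adjusted p = 0.00433; replicate 3 alone 2.02). In Cyp2g1 and Lgr5 only the fasted wild type arrays were low. In Cyp7a1 a fed knockout array (9.75) lay as low.

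Of 19 pericentral hepatocyte genes 5 rose (all genes: 6.68%) and 0 fell, with a median of 0.28. Beside Lgr5 and Cyp7a1 these were Slc13a3 (0.80, adjusted p = 0.0422), Rnf43 (0.70, adjusted p = 0.0224), a brake on Wnt signalling, and Lect2 (0.33, adjusted p = 0.0478). The count was 2 without knockout replicate 1 and 2 without wild type replicate 2 or 3. The best known pericentral enzymes Glul (0.10) and Cyp2e1 (0.02) and the Wnt target Axin2 (-0.30) were not called. Of 15 periportal genes 1 rose (Aldh1b1, 0.80, SE 0.12, adjusted p = 0.00685), and of 15 bile acid genes Cyp7a1 alone was called.

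Sterol and replication genes contributed a few calls. Of 19 cholesterol synthesis genes 4 rose and 0 fell, with a median of 0.12. Mvk, mevalonate kinase, read 5.43, 5.39 and 5.66 in fasted wild type against 6.78, 6.26 and 6.65 in knockout (1.07, SE 0.16, adjusted p = 0.00685). Nsdhl (0.75), Stard4 (0.73) and Sc5d (0.43) were the others, and only Mvk held in all 6 fits without a fasted array. In fed liver the list's median was -0.70, with Mvk at -1.13 and not called. Of 17 cell cycle genes 5 rose (all genes: 6.68%), all of them DNA replication genes, and 0 fell, with a median of 0.38. Mcm4, a subunit of the replicative helicase, was at least 2.06-fold higher (1.39, SE 0.19, adjusted p = 0.00606), followed by Mcm5 (1.33, adjusted p = 0.0374), Mcm10 (0.74) and Pcna (0.49). The fifth, Cdt1, was called (adjusted p = 0.026) but lay below the median on all fasted wild type arrays, and its knockout level gave no fold above that bound. The mitotic genes Cdk1 (-0.03), Ccnb2 (-0.14) and Mki67 (-0.16) were not called. The cell cycle count fell to 1 without knockout replicate 1 or wild type replicate 3, and the sterol count to 1 without either of these or wild type replicate 2.

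Genes tied to PML itself are set beside all genes tested, of which 6.68% rose and 4.43% fell (11.1% called). Of 28 tested nuclear body and SUMO genes 3 rose and only Pml fell, with a median of -0.09. The 3 were the helicase Blm (1.54, SE 0.36, adjusted p = 0.0278), the nuclease Mre11a (0.58, adjusted p = 0.0467) and the SUMO-activating subunit Sae1 (0.47, adjusted p = 0.0377). Each was called in 2 of the 6 fits without a fasted array. The number that rose was 0 without wild type replicate 3 or knockout replicate 1 and 1 without wild type replicate 1 or knockout replicate 3, and without the latter 3 fell. Daxx (-0.16), Sp100 (0.12) and Rnf4 (-0.06) were not called. PML is known to act on p53. Of 21 p53 targets, set beside the same shares, 1 rose (Ccng1, 0.54, SE 0.09, adjusted p = 0.0101) and 2 fell. Those were Tigar (-0.61, SE 0.10, adjusted p = 0.0104), which was lower in fed knockout by a like amount though not called there (-0.71), and Mdm2 (-0.42, adjusted p = 0.0337). The largest differences on the list, Cdkn1a (-3.87, adjusted p = 0.0638) and Ddit4 (-2.05, adjusted p = 0.0981), were not called by limma. The number of targets that fell was 5 without knockout replicate 3 and 1 without knockout replicate 1 or any 1 wild type array. Of 16 NRF2 targets and antioxidant genes only Nqo1 rose (1.01, SE 0.20, adjusted p = 0.0165), a call lost without wild type replicate 2 or knockout replicate 1.

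Bcl6, a repressor under growth hormone control, read 8.03, 8.32 and 8.12 against 6.84, 6.90 and 6.94 (-1.27, SE 0.14, adjusted p = 0.00433). The fed arrays lay between 8.25 and 9.28, all above the fasted knockout arrays. Of 20 growth hormone and sex-biased genes it was the only one to fall, while Hsd3b2 (2.29, SE 0.44, adjusted p = 0.0147) and Igfals (0.66, SE 0.10, adjusted p = 0.00829) rose. Hsd3b2 lost its call without wild type replicate 3 or knockout replicate 1. Tacc2, a centrosomal protein, fell by 1.63 (SE 0.14, adjusted p = 0.00285), and Dnph1, a nucleotide hydrolase, rose by 1.76 (SE 0.16, adjusted p = 0.00285). Mmd2 rose by 2.09 (SE 0.27, adjusted p = 0.00489), with the fasted wild type arrays between 5.62 and 6.53 and the knockout arrays between 7.83 and 8.41. The glycosyltransferase B3galt1 rose by 2.12 (SE 0.34, adjusted p = 0.00887), and Nrep by 2.04 (SE 0.37, adjusted p = 0.0124). The protease inhibitor Serpinb1a was at least 2.02-fold higher (1.77, SE 0.28, adjusted p = 0.00822), and Fam107a, a stress-responsive actin binder, fell by 1.97 (SE 0.32, adjusted p = 0.00898). Each of these 5 was called in all 6 fits without a fasted array. The fructose transporter Slc2a5 was at least 2.71-fold higher (1.93, SE 0.40, adjusted p = 0.0187). Dhrs9 (-3.04), Chka (-2.42), Spon2 (-2.13) and Klhdc7a (2.27) had large differences but divided the knockout arrays as the clock genes did, and each was called in 1 of the 6 fits without a fasted array.

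Acute phase, autophagy, endoplasmic reticulum and hepatocyte lists had a smaller share called than the 11.1% of all genes tested, and drug metabolism a larger one. Of 25 acute phase genes 0 were called by limma, of 24 autophagy and lysosome genes 1 fell (Bnip3, -0.41), and of 21 endoplasmic reticulum genes 1 fell (Atf6, -0.42). Of 22 drug metabolism genes Cyp3a25 (0.91), Cyp2c50 (0.41) and Cyp2c54 (0.35) rose and Cyp2b10 fell (-0.39), all within families of close copies. None of the higher calls held without knockout replicate 1 or wild type replicate 1 or 3, and the lower call was lost in 4 of the 6 fits without a fasted array. Of 12 hepatocyte markers 0 were called by limma (Alb -0.03, Apoa1 -0.04 and Hnf4a -0.38), and their summed intensity was between 52315 and 55697 on the fasted arrays. Endothelial, stellate and bile duct marker lists had 1 call each (Stab1 -0.44, Pdgfra -0.80 and Prom1 at least 1.38-fold higher). Bnip3, Atf6, Stab1 and Pdgfra each lost their calls in at least 4 of the 6 fits without a fasted array, and Prom1 in 3. Among 304 tested genes within 20 Mb of Pml on its chromosome 26 rose and 25 fell, or 16.8% against 11.1% of all genes; the part of linked alleles was not tested.

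The fed comparison shares no array with the fasted one. It called 12 genes, 0.0861% of those tested, with 2 arrays a group. Pml and Cyp2b10 were called in both, Pml with the same sign and Cyp2b10 with the opposite sign (0.89 fed and -0.39 fasted). Across all genes, which are not independent replicates and share the array platform, the fed and fasted differences correlated with Pearson r = -0.06 and Spearman rho = -0.08. Of the 1549 genes called in fasted liver, 628 (40.5%) had the same sign in fed liver, against 46.8% of all genes tested. The interaction of genotype with fasting was called for 294 genes (2.11%), 245 of them also called in fasted liver. That count was 13 and 2 without fed knockout replicates 1 and 2, 83 and 120 without fed wild type replicates 1 and 2, 4 with no filter and 520 under trend and robust moderation. Without 1 fasted array it was 40 to 60, except 246 without knockout replicate 2 and 360 without knockout replicate 3. The interaction was called neither for Pml (0.03, SE 0.29, adjusted p = 0.968) nor for Pdk4 (-3.32, SE 0.96, adjusted p = 0.106) or Cidec (-2.76, SE 0.62, adjusted p = 0.0565), whose fed differences were 0.13 and 0.07.

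**Figure D5:**
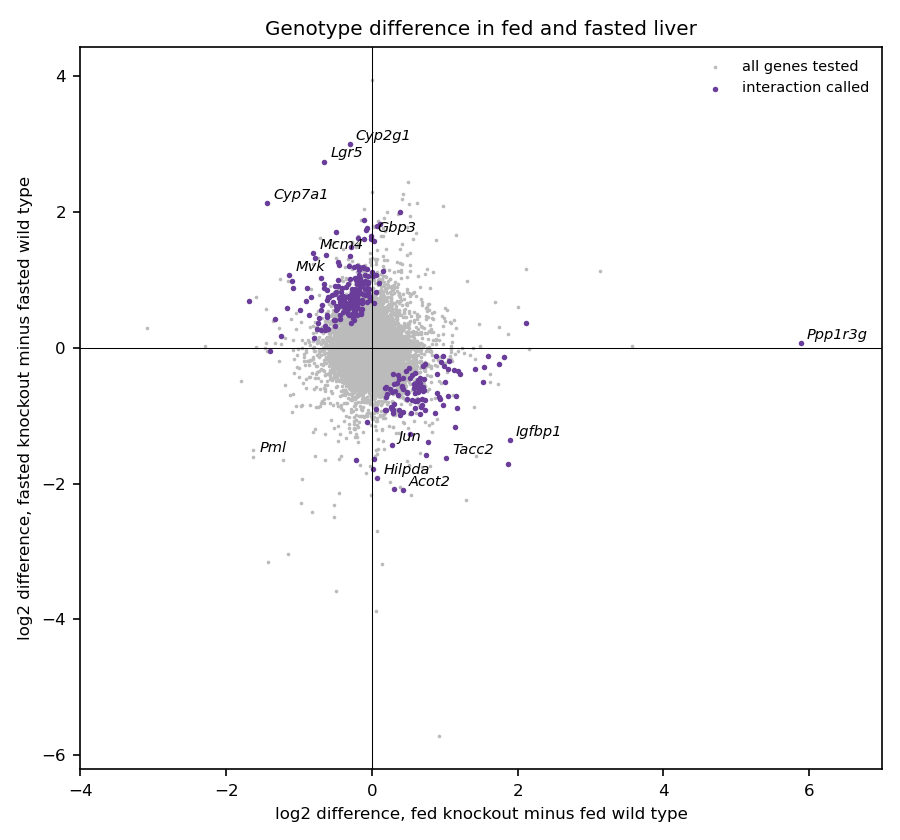
Log2 difference of knockout minus wild type in fed liver (x axis, 2 arrays against 2) and fasted liver (y axis, 3 against 3) for each tested gene, with genes whose interaction was called in purple. Pml lies low in both, Ppp1r3g differs in fed liver alone among the labelled genes, and Cyp7a1 (fed -1.43, fasted 2.13) and Igfbp1 (fed 1.89, fasted -1.36) lie on opposite sides of 0 in the fed and fasted comparisons.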

How the data were processed

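The authors deposited a linear, normalized intensity for every probe set on every array, which came from RMA run in Affymetrix Expression Console per the submitters' processing notes. Software versions and the genome build: not given in the sources used here. Each array holds 228 to 489 values below 0.1, unusual for RMA, so the exact summary is uncertain. Deposited values were converted to log2 and not normalized again. Of 41345 probe sets 25335 are named in GEO's platform table, 23521 with 1 symbol and 1814 with several, and 16010 are unnamed. Probe sets with 1 symbol that lay above the array median on at least 2 arrays were kept (14617), and the brightest stood for its gene; 519 genes had more than 1. In limma 3.58.1 (R 4.3.3) the 10 arrays were modelled by 4 group means with moderated variances (3.63 prior and 6 residual degrees of freedom); the script was tested on simulated data. Benjamini-Hochberg adjustment ran over the 13942 genes.

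The members and the 39 gene lists were chosen with earlier results of these data known. Of 674 distinct list genes 546 were tested. Named were Pml, up to 12 genes per direction with the largest difference among called genes without overlap, up to 8 per direction with the widest gap between groups, and up to 4 members per list with the smallest p. Predicted and numbered symbols were left out. Further list members are named to complete a list's account, chosen after their values were seen. Alternatives were other scaling, filters, moderation, array weights, a replicate block, the 6 fasted arrays alone and the omission of each array; the omission of both fasted knockout replicates 1 and 2 was chosen after seeing the data. Promoters came from a RefSeq table.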

Additional observations from a re-analysis of the deposited data

Results flagged for a closer look

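For 27 named genes the genotype difference in fasted liver differed from that in fed liver by the limma interaction test at an adjusted p under 0.05 (3 arrays a group fasted, 2 fed). Values are the fasted minus the fed genotype difference in log2. In interferon-linked genes it was 1.82 for Igtp, 1.66 for Gbp3, 1.55 for Gbp7, 1.62 for Apol9a and 1.71 for Apol9b. In metabolic genes it was 3.57 for Cyp7a1, 3.31 for Cyp2g1, 2.21 for Mvk, 1.60 for Nsdhl and -1.28 for Cyp2b10. In genes of fasting metabolism it was -3.25 for Igfbp1, -2.52 for Acot2, -1.86 for Acot3, -1.98 for Hilpda, -1.40 for Pex11a, -1.13 for Pnpla2 and -0.76 for Bnip3. In pericentral and replication genes it was 3.40 for Lgr5, 1.31 for Rnf43, 2.20 for Mcm4 and 0.69 for Pcna. Lgr5 and Mcm4 lay below the array median on all fasted wild type arrays, so their fitted values rest on a level that is only a bound. The others were Dnph1 (1.82), Igfals (0.80), Ccng1 (0.77), Jun (-1.70), Tacc2 (-2.64) and an immunoglobulin kappa variable segment (-2.38). Acot3 was not itself called in fasted or fed liver. These calls rest on 2 fed arrays a group: without fed knockout replicate 1 or 2 the count was 3 or 1.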

How the results depend on the processing

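The count of 1549 called genes (931 higher, 618 lower) was 654 (425 and 229) with no filter on dim probe sets, which tested more genes, and 850 (544 and 306) with the 6 fasted arrays alone. It was 6 (3 and 3) without both fasted knockout replicates 1 and 2, an alternative chosen after seeing the data, which leaves 1 knockout array. Over the omissions of 1 array it lay between 435 and 1501, with 286 to 826 higher and 149 to 675 lower. Leaving out 1 fed array gave 1181 or 1329. Pml kept its call in all alternatives except the loss of both replicates (-1.65, adjusted p = 0.0708).

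Of the named genes, 27 interaction calls became 44 with a filter at the 70th percentile, 43 under trend and robust moderation, 1 with no filter and 0 without both replicates, and lay between 1 and 44 over the omissions of 1 array. The 2 fed calls became 0 with the replicate block, 0 with no filter, 4 under trend and robust moderation and between 0 and 2 over the omissions.

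Same-numbered fasted wild type and knockout arrays deviated together by r = 0.09, 0.06 and 0.01, and unlike-numbered ones by -0.15 to 0.09. The labels do not say whether equal numbers mark paired samples, and with so few arrays these values cannot settle it. With the replicate number as a block 1256 genes were called.

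Signs reversed only in genes that were not called. Over the omissions of 1 array the difference lay between -0.08 and 0.10 for Acat1 (0.00 with all arrays), -0.49 and 0.04 for Lipe (-0.25), -0.20 and 0.14 for Epb42 (-0.04), -0.20 and 0.04 for Krt19 (-0.09), -0.61 and 0.24 for Ccl5 (-0.14), and -0.11 and 0.38 for Cpb1 (0.16). Without both replicates it was -0.27 for Cpb1, -0.01 for Cpa1 (0.25) and 0.29 for Fabp4 (-0.21). With all arrays each of these differences was 0.25 or less in size. The cause was not tested.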
